A study of Mus musculus with 24 samples.

Results

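A set of 10 genes of mouse B cells encodes the Toll-like receptors and co-receptors described here: Tlr1, Tlr2, Tlr3, Tlr4, Tlr6, Tlr7, Tlr9, Cd180, Ly86 and Ly96. They were chosen by symbol, and all 10 were found among the 27179 genes of the count tables. RNA-seq of lymph node B cells from C57BL/6 mice, sorted as CD3- B220+ CD138-, gave 24 libraries, a pair for every combination of 4 genotypes and 3 stages. Control mice were Cd23T/+ and thus carried the Cd23-Cre transgene, which acts in B cells from the transitional stage on. PU.1 cKO mice were Spi1fl/fl Cd23T/+, with Cre-mediated loss of PU.1, the Ets transcription factor encoded by Spi1. SpiB KO mice were Spi1fl/fl Cd23+/+ Spib-/-, so they lacked the related factor SpiB in all cells and carried no Cre. PU.1 SpiB DKO mice were Spi1fl/fl Cd23T/+ Spib-/-. Cells were studied as naive cells or after 48 h in culture, either with CD40L + IL-4, which mimics T cell help, or with LPS + IL-4, in which lipopolysaccharide (LPS) engages a Toll-like receptor. The question was how the loss of PU.1, of SpiB or of both altered the RNA of these immune sensors.

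Toll-like receptors recognise conserved microbial molecules. TLR2, which pairs with TLR1 or TLR6, binds bacterial lipopeptides at the cell surface, and TLR4 binds LPS there together with its co-receptor MD-2, encoded by Ly96. TLR3, TLR7 and TLR9 sit in endosomes and detect double-stranded RNA, single-stranded RNA and unmethylated CpG DNA. B cells also carry CD180 (RP105), a relative of TLR4 without its own signalling domain, which is held at the surface by MD-1, the product of Ly86. Engagement of these receptors makes B cells proliferate and differentiate without help from T cells.

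The libraries held 14231188 to 18194629 counts in naive cells, 22757630 to 73658850 in LPS + IL-4 cultures and 9598674 to 61640683 in CD40L + IL-4 cultures, where PU.1 cKO replicate 2 was by far the deepest and the median was 10070288. Levels are given as CPM, the count of a gene relative to a fixed total per library, scaled within a stage by the trimmed mean of M values (TMM) unless stated otherwise. Spib was lower by 3.83 to 5.50 on the log2 scale than in control wherever the labels gave its loss, whereas the fall of Spi1 depended on stage. In naive cells Spi1 was at 155 and 174 CPM in control, 59.5 and 53.2 CPM in libraries of PU.1 cKO and 103 and 110 CPM in those of PU.1 SpiB DKO, which lay above PU.1 cKO by 0.92 ± 0.11 on the log2 scale (adjusted p = 0.000571, edgeR). In CD40L + IL-4 cultures Spi1 was at 84.8 and 108 CPM, 46.9 and 35.1 CPM, and 32.5 and 25.6 CPM in the same order. After LPS + IL-4 it was at 72.0 and 60.7 CPM, 44.2 and 41.2 CPM, and 63.9 and 58.8 CPM, so that PU.1 SpiB DKO overlapped control. These are counts over the whole gene, in which the deleted exon of Spi1 cannot be separated. The study describes incomplete loss of that exon in naive PU.1 SpiB DKO cells. The naive libraries of this genotype thus do not stand for a full loss of PU.1. For the cultures the study reports complete excision of the exon after CD40L + IL-4, and deletion of similar efficiency after LPS + IL-4. Whether PU.1 was retained in the LPS + IL-4 libraries, where Spi1 counts overlapped control, was not tested. All 7 B cell markers were above 1 CPM in every group, with a summed level of 2950 to 10800 CPM. Markers of other cells moved with genotype. In naive cells the sum of 10 plasmacytoid dendritic cell (pDC) markers was 363 to 494 CPM in control and PU.1 cKO but 2030 to 3010 CPM where Spib was deleted (SpiB KO or PU.1 SpiB DKO), and T cell markers (70.6 to 116 against 401 to 603 CPM), macrophage and monocyte markers (13.8 to 25.7 against 53.7 to 74.3 CPM) and conventional dendritic cell markers (21 to 46.3 against 98.7 to 148 CPM) were split in the same way. In the cultures pDC markers summed to 201 to 355 CPM in all groups, with 3 to 6 of the 10 genes at 1 CPM or more in a group, Klk1 and Cd209d at 0 in all 8 groups and Siglech at 0 in 3 of them. Macrophage and monocyte markers moved with PU.1 loss there, with sums after CD40L + IL-4 of 46.1 to 62 CPM in control libraries, 41.6 to 62.6 CPM in those of SpiB KO, 9.95 to 10.9 CPM in PU.1 cKO and 9.91 to 12.4 CPM in the double mutant, while Csf1r, C1qa, C1qb, C1qc and Cd14 were at 0 in all 4 groups. After LPS + IL-4 these sums were 12.1 to 24.3 CPM in control and SpiB KO and 3.94 to 8.26 CPM in both genotypes with PU.1 loss. T cell marker sums after CD40L + IL-4 were 40.4 to 46.3 CPM in control, 71.2 to 92.4 CPM in PU.1 cKO, 55.4 to 82.9 CPM in SpiB KO and 80.9 to 115 CPM in the double mutant. After LPS + IL-4 they were 19.5 to 21.8, 37.3 to 40.1, 43.2 to 45.3 and 92.7 to 93.5 CPM in the same order. Only 2 or 3 of the 8 T cell genes were at 1 CPM or more in a culture group, and Cd3e was at 0 in the double mutant after LPS + IL-4. B cell marker sums after CD40L + IL-4 were 5840 to 7430 CPM in control and 3820 to 4900 CPM in the double mutant. After LPS + IL-4 the direction was opposite, with 3390 to 3950 CPM in control and 4010 to 4040 CPM in the double mutant. Conventional dendritic cell markers summed to 4.72 to 31.8 CPM in the cultures. Plasma cell markers summed to 1740 to 2410 CPM in control and SpiB KO after CD40L + IL-4, to 3110 to 3430 CPM in PU.1 cKO and to 4240 to 4390 CPM in PU.1 SpiB DKO. After LPS + IL-4 these sums were 1190 to 1400, 2050 to 2280 and 2930 to 2980 CPM. Neutrophil markers summed to at most 2.57 CPM, and marginal zone and B-1 cell markers to 674 to 966 CPM in naive cells, 109 to 258 CPM after CD40L + IL-4 and 302 to 459 CPM after LPS + IL-4. The study reports raised expression of pDC, macrophage and T cell genes in naive cells lacking SpiB. It proposes that SpiB represses genes of other lineages in B cells. The part of other cells in the results below was not tested. In bulk RNA, fewer cells of a type and less RNA per cell cannot be told apart.

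**Figure D1:**
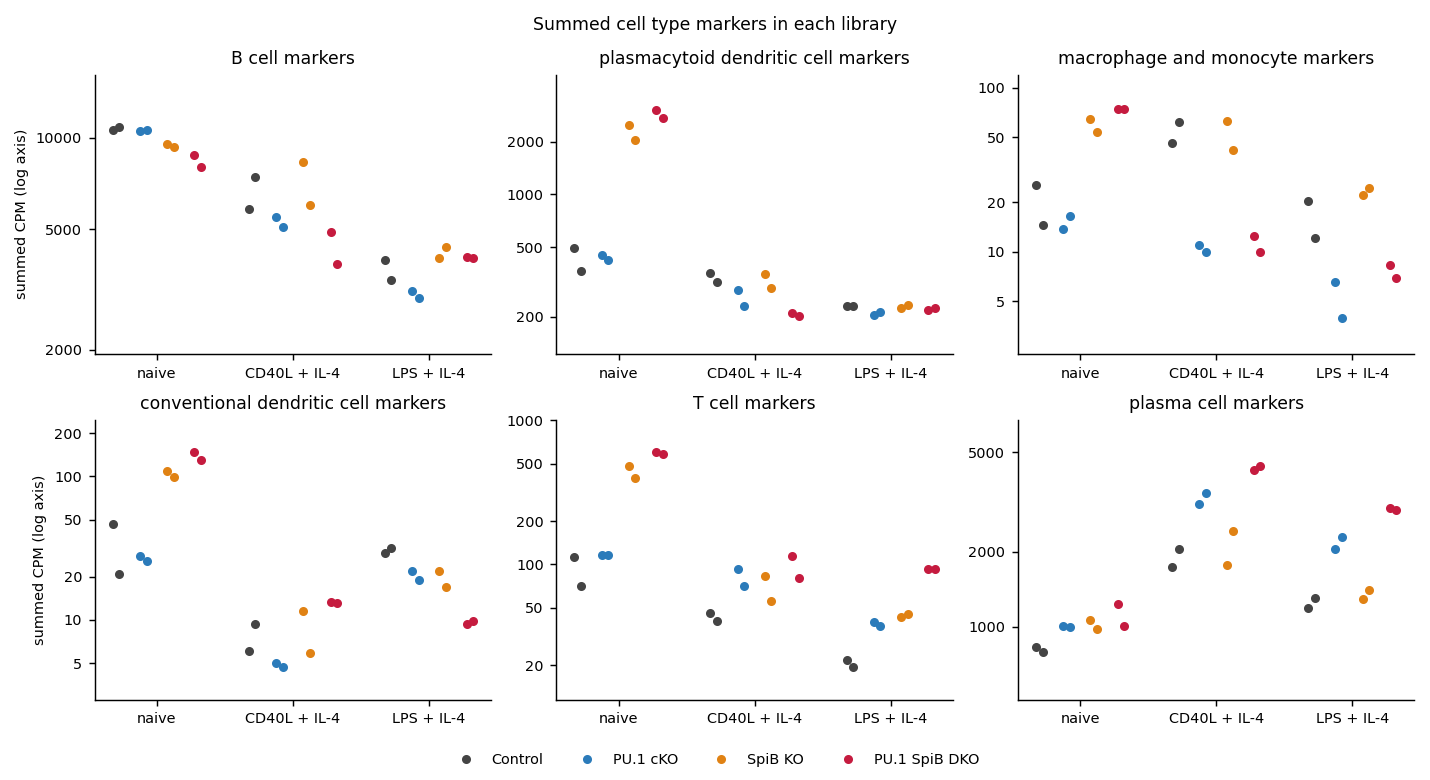
Summed CPM (vertical log axis) of the B cell, pDC, macrophage and monocyte, conventional dendritic cell, T cell and plasma cell marker lists in each of the 24 libraries, by stage (horizontal axis) and genotype (colour). Each point is 1 library. In naive cells the pDC sums of both Spib-/- genotypes lie at 2030 CPM or more and those of the other genotypes at 494 CPM or less.

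Sequence upstream of Tlr9 and Tlr1 is shown because these genes, called lower in PU.1 SpiB DKO in both cultures, were those whose windows held a match, and PU.1 and SpiB recognise the same purine-rich DNA site with a GGAA core. RefSeq promoter entries of GRCm38.p6 were found for 7 of the 10 genes, and Tlr4, Tlr7 and Ly96 had no entry. The 250 bases before each annotated start were searched on both strands for GAGGAA and GAGGAAGT (the core with flanking bases that PU.1 prefers, the longer form holding the shorter) and for GGAANNGAA (a composite Ets and IRF site). Sequences are given 5′ to 3′ on the strand of the gene, with matches in capitals.
Tlr9, the 250 bases before the start (chr9:106222348-106222597, plus strand): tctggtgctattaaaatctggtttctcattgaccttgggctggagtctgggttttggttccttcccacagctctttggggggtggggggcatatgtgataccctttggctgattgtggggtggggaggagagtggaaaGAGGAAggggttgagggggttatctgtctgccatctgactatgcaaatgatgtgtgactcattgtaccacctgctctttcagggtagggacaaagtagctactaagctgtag
Tlr1, 30 bases around the match (chr5:64933563-64933592, minus strand): attaaatgttgGAGGAAGTaggagcttgaa
In the Tlr9 window GAGGAA began 112 bases before the start, and 23.1% of 27025 gene promoters of the same length held these letters. In the Tlr1 window GAGGAAGT began 23 bases before the upstream of 2 annotated starts, and 2.44% of promoters held it. That match lies within the annotated span of Tlr1 (chr5:64924680-64933600). The windows of Tlr2, Tlr3, Tlr6, Cd180 and Ly86 held none of the 3 motifs, and GGAANNGAA, found in 7.03% of promoters, was in none of the 7. Tlr2 and Ly86 were also called lower in PU.1 SpiB DKO in both cultures, and so was Tlr4, which had no entry. A match describes the letters only, and no binding was measured here. The study itself reports PU.1 binding at the proximal promoters of Tlr4 and Tlr9, from chromatin immunoprecipitation sequencing of LPS-activated plasmablasts.

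In control cells the co-receptors Ly86 and Cd180 had the highest RNA level per length of the 10 genes at every stage. In naive control cells Ly86 was at 421 ± 29.2 RPKM (SD, n = 2), Cd180 at 197, Tlr9 at 105, Tlr1 at 63.6 and Tlr7 at 33.1 RPKM, with RPKM being the read density per length of gene and depth of library that the authors deposited. Tlr4 followed at 12.6, Tlr2 at 9.76, Ly96 at 9.37, Tlr6 at 5.45 and Tlr3 at 2.56 RPKM. Each neighbour in that order was separated by both libraries except Tlr2 (9.0 and 10.5 RPKM) and Ly96 (7.97 and 10.8 RPKM), which overlapped. After CD40L + IL-4 Tlr7 (44.1 RPKM) came next after Cd180, ahead of Tlr9 (37.3 RPKM), and Tlr3 was at 0.190 RPKM. After LPS + IL-4 Tlr7 (29.6 RPKM) again stood ahead of Tlr9 (22.9 RPKM), and Tlr2 (1.90 RPKM) and Tlr3 (0.407 RPKM) were the lowest.

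**Figure D2:**
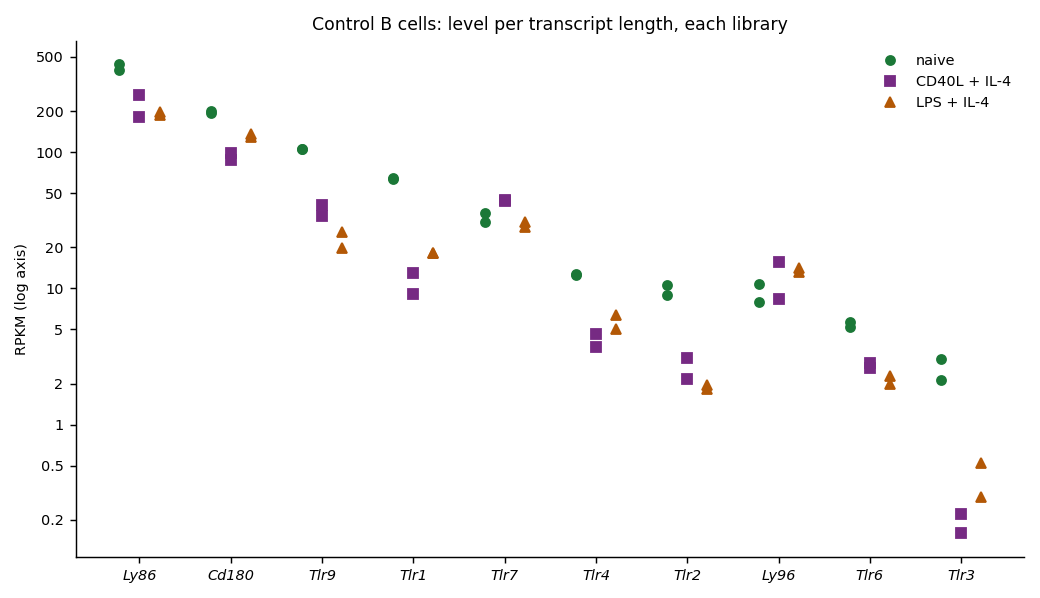
Deposited RPKM (vertical log axis) of the 10 genes in control cells, ordered by the naive mean, with 1 point for each library and a marker for each stage. Ly86 and Cd180 are highest at every stage, and Tlr3 falls from 2.56 RPKM in naive cells to below 1 RPKM in both cultures.

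Most of these receptors fell on activation as a share of the counts of a library. RNA per cell was not measured. A gene is called higher or lower here when edgeR's quasi-likelihood test gave a Benjamini-Hochberg adjusted p under 0.15 over all genes tested and the fold exceeded 1.5. The study's methods give this fold, while its figure legends ask for a slightly higher one, which was not tried. The legends also ask for a log2 RPKM above 0, which was tried as an alternative. Against naive control cells, 8 of 10 genes were called lower after CD40L + IL-4 and 0 higher, where 23.4% of all 13684 genes tested were called lower and 25.4% higher. After LPS + IL-4 it was again 8 lower and 0 higher, with 31.3% and 32.6% of all genes. The same 8 genes, Tlr1, Tlr2, Tlr3, Tlr4, Tlr6, Tlr9, Cd180 and Ly86, were called in both cultures. Their medians were -1.34 and -1.31 over the 10 genes on the log2 scale, against 0.00 and 0.01 over all genes. The stages also stand for separate cultures and library sets, and stage and sequencing occasion cannot be told apart.

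The size of the fall differed between genes. Tlr3, the sensor of double-stranded RNA, was at 8.45 and 12.3 CPM in naive control cells (TMM over all 24 libraries in this paragraph), at 0.932 and 0.717 CPM after CD40L + IL-4 and at 2.03 and 1.01 CPM after LPS + IL-4. This was a log2 change of -3.64 ± 0.48 (SE, adjusted p = 3.49e-06, edgeR) with CD40L + IL-4 and of -2.83 ± 0.40 with LPS + IL-4. Tlr1 was at 167 and 168 CPM, then at 24.1 and 33.8 CPM (log2 change -2.54 ± 0.17) and at 44.3 and 45.9 CPM (-1.89 ± 0.16). Tlr9, the CpG DNA receptor, was at 391 and 365 CPM, then at 122 and 140 CPM (-1.53 ± 0.18) and at 86.4 and 68.1 CPM (-2.29 ± 0.18). Tlr4 was at 47.1 and 48.8 CPM, then at 14.7 and 18.5 CPM (-1.53 ± 0.15) and at 18.3 and 23.4 CPM (-1.19 ± 0.15). Tlr7 and Ly96 were not called in either culture. Tlr7, the single-stranded RNA receptor, differed from naive by 0.38 ± 0.14 with CD40L + IL-4, with an adjusted p of 0.0254 but a fold under 1.5, and by -0.22 ± 0.14 with LPS + IL-4. For Ly96 the change was 0.55 in both, with SE of 0.28 and 0.27.

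The cultures differed from each other in 4 of the genes in control cells. Tlr1 was higher after LPS + IL-4 than after CD40L + IL-4 (log2 change 0.65 ± 0.16, adjusted p = 0.00277, edgeR; 20.3% of all genes were called higher). Tlr9 (-0.76 ± 0.17), Tlr2 (-0.66 ± 0.21) and Tlr7 (-0.60 ± 0.14) were lower, a direction in which 21% of all genes were called. Tlr1 no longer passed without control replicate 1 of CD40L + IL-4 (0.41), nor Tlr2 without control replicate 2 (-0.36). Tlr7 fell under the fold without control replicate 1 of CD40L + IL-4 or replicate 2 of LPS + IL-4 (-0.57 each). Tlr4, the receptor of the LPS in one of the cultures, was at 14.7 and 18.5 CPM against 18.3 and 23.4 CPM, so the libraries overlapped (0.34 ± 0.15, fold under 1.5).

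Across genotypes, loss of SpiB alone left these genes uncalled, loss of PU.1 alone lowered Tlr9 and Ly86 at all 3 stages, and loss of both lowered 5 genes after CD40L + IL-4, as many as PU.1 loss alone, and 6 after LPS + IL-4. In PU.1 cKO against control, 2 genes were called lower in naive cells (6.55% of all 12500 genes tested were), 5 after CD40L + IL-4 (7.21% of 12721) and 3 after LPS + IL-4 (3.85% of 12445). In PU.1 SpiB DKO against control, 1 gene was called lower and 1 higher in naive cells (8.64% and 12.6% of all genes). After CD40L + IL-4 5 were called lower and 0 higher (9.20% and 9.13%), and after LPS + IL-4 6 lower and 0 higher (6.52% and 13.7%). Medians over the 10 genes in PU.1 SpiB DKO were -0.28, -0.78 and -0.74 on the log2 scale, against 0.00, 0.00 and 0.01 over all genes. In SpiB KO against control no gene of the 10 was called by edgeR or DESeq2 at any stage. In naive, CD40L + IL-4 and LPS + IL-4 cells 2, 1 and 1 had an unadjusted p under 0.05. Of these, 1 gene in naive cells, Tlr4, had an edgeR adjusted p under 0.15 but a fold under 1.5. With voom, 1 was called, Tlr2 after LPS + IL-4 (-0.60, adjusted p = 0.146). The share of all genes called lower in SpiB KO was 3.62%, 0.0550% and 0.940%. Within a stage, every comparison with control uses 1 pair of control libraries. SpiB KO also differed from control and PU.1 SpiB DKO by the lack of Cre, and from control by floxed Spi1. In comparisons with SpiB KO these cannot be told apart from the losses. Nor do they cancel where the double loss is set against the sum of the single losses. With 2 libraries in each group an exact permutation test could not give a p under 0.333. The p-values of these comparisons rest on a spread between libraries of a group that is shared over the 4 genotypes of a stage. The study calls the 2 libraries of a group biological replicates, with no label for the animals behind them.

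**Figure D3:**
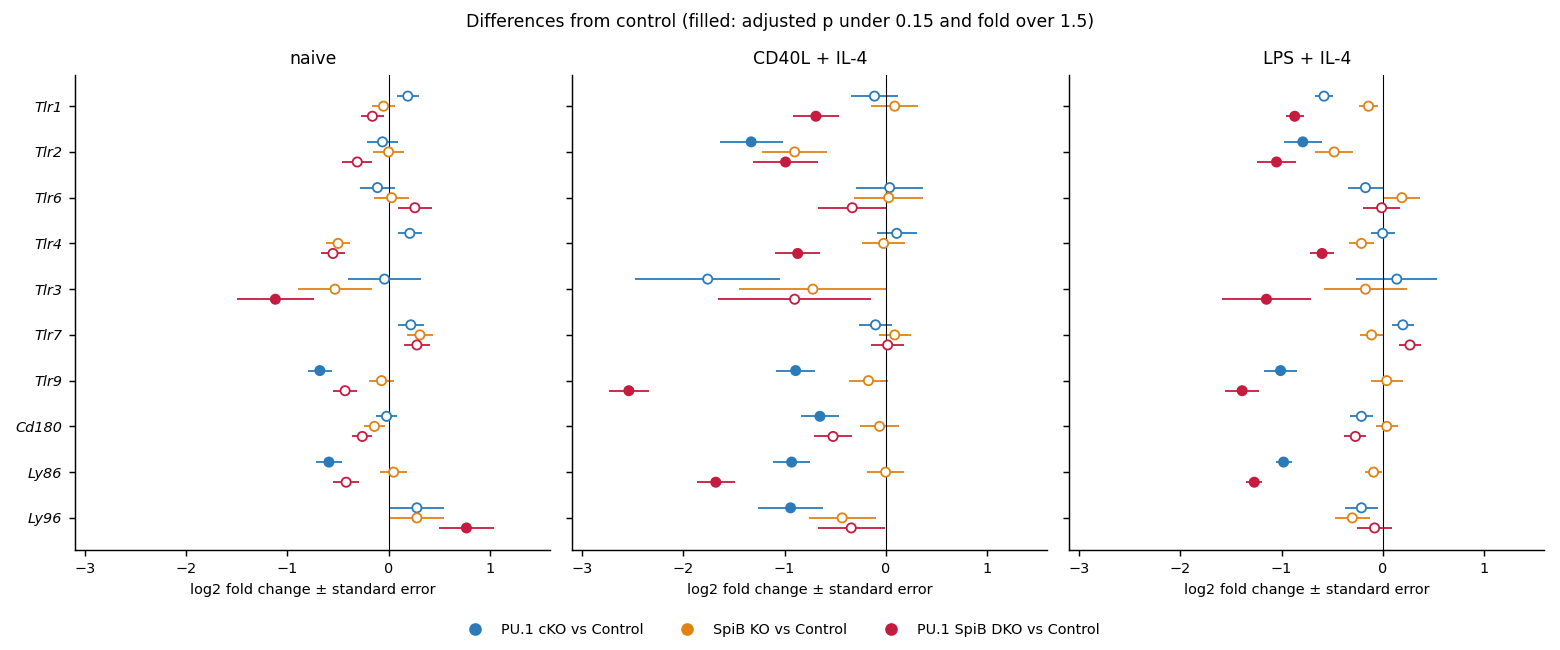
Log2 fold change from control ± standard error (horizontal axis) of the 10 genes (vertical axis) in naive cells and both cultures, for PU.1 cKO, SpiB KO and PU.1 SpiB DKO. Filled points were called. SpiB KO has no filled point, and the farthest point from 0 is Tlr9 in PU.1 SpiB DKO after CD40L + IL-4 at -2.54.

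**Figure D4:**
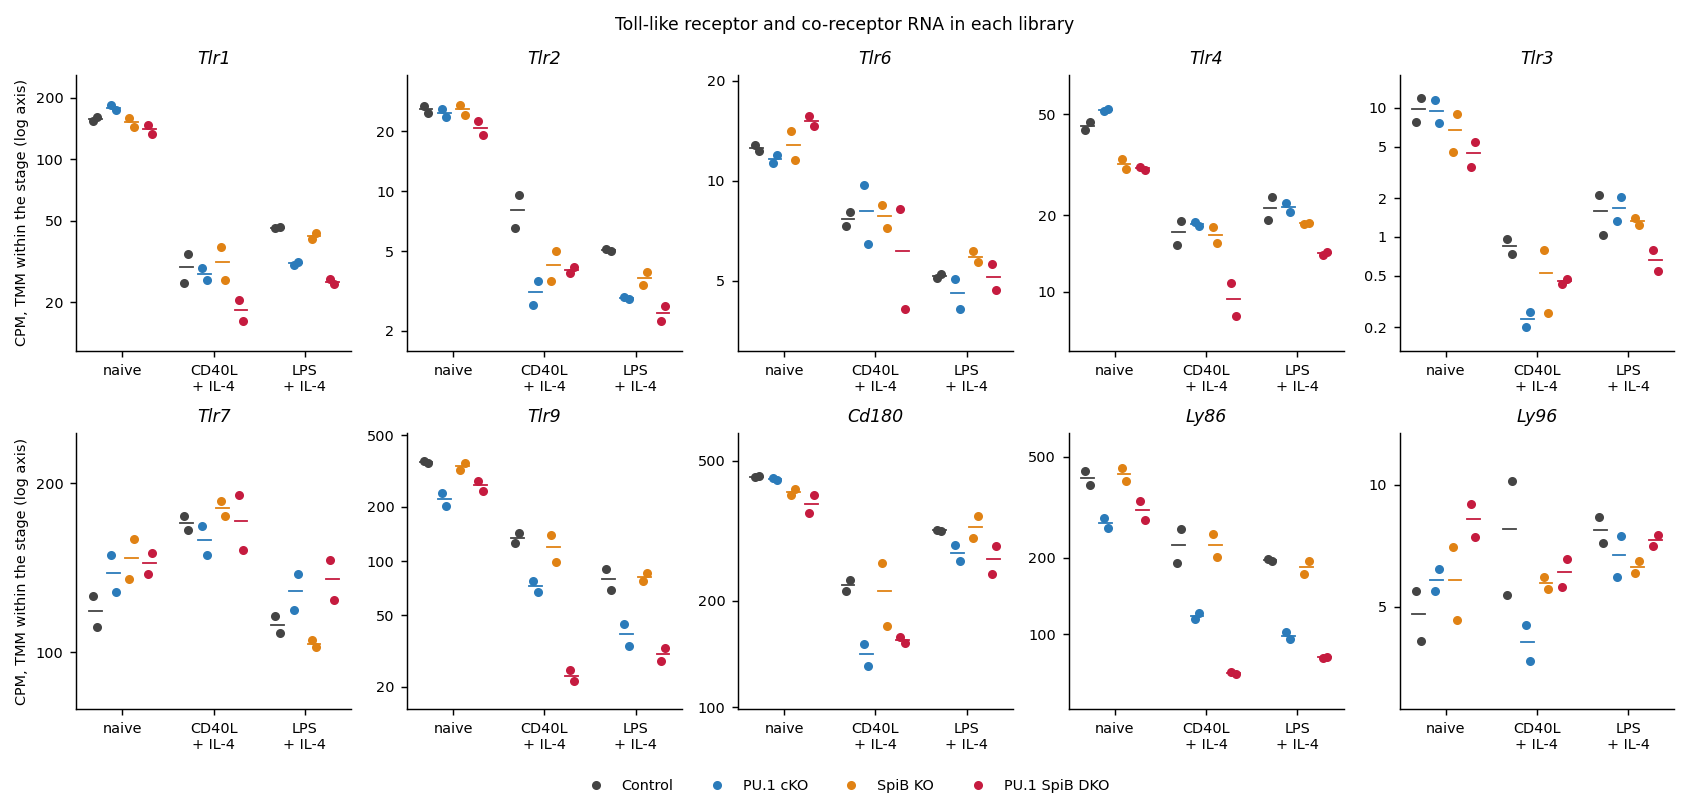
CPM within the stage (vertical log axis) of each of the 10 genes in each library, by stage and genotype (colour). Each point is 1 library and each bar the mean of 2. For Tlr9 and Ly86 the libraries of both genotypes with PU.1 loss lie below both control libraries at every stage.

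Tlr9 had the largest change of the 10 genes in both cultures of PU.1 SpiB DKO. After CD40L + IL-4 its level was 126 and 143 CPM in control, 78.0 and 67.0 CPM in libraries of PU.1 cKO, 140 and 98.7 CPM in those of SpiB KO and 24.7 and 21.6 CPM in those of PU.1 SpiB DKO. Neither genotype with PU.1 loss overlapped control or the other, whereas SpiB KO overlapped control. The log2 change from control was -0.89 ± 0.19 in PU.1 cKO (adjusted p = 0.0142, edgeR) and -2.54 ± 0.20 in PU.1 SpiB DKO (2.39e-05), a 5.81-fold fall. PU.1 SpiB DKO was also below PU.1 cKO by -1.64 ± 0.20 and below SpiB KO by -2.36 ± 0.20. The change with both losses exceeded the sum of the single losses, with an interaction of -1.47 ± 0.27 (adjusted p = 0.0563), and Tlr9 was the 1 gene of the 10 called for it there (0.629% of all genes were called lower). The interaction passed in 4 of the 8 fits that each left out 1 library, with values of -1.72 to -1.20. The adjusted p was 0.198 and 0.162 without control replicate 1 or 2, 0.15 (at the limit) without PU.1 cKO replicate 1 and 0.193 without PU.1 SpiB DKO replicate 2. Without the deep PU.1 cKO replicate 2, the change in PU.1 cKO was -0.77 with an adjusted p of 0.156.

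After LPS + IL-4 Tlr9 was at 90.1 and 68.9 CPM in control, 44.9 and 33.7 CPM in libraries of PU.1 cKO, 77.3 and 85.8 CPM in those of SpiB KO and 27.8 and 32.8 CPM in those of PU.1 SpiB DKO. Both genotypes with PU.1 loss lay below control and SpiB KO. The log2 change was -1.01 ± 0.16 (adjusted p = 0.00374, edgeR) in PU.1 cKO and -1.39 ± 0.17 (0.000294) in PU.1 SpiB DKO, and the step from single to double loss was -0.38 ± 0.17 and not called. In naive cells Tlr9 was at 359 and 349 CPM in control, 240 and 202 CPM in libraries of PU.1 cKO, 322 and 351 CPM in those of SpiB KO and 280 and 246 CPM in those of PU.1 SpiB DKO. Here it was called lower in PU.1 cKO (-0.68 ± 0.12, adjusted p = 0.0108), with PU.1 SpiB DKO between it and control (-0.43 ± 0.12, adjusted p = 0.0355, fold under 1.5). Without PU.1 cKO replicate 2 the naive call kept an adjusted p of 0.107 but its fold was under 1.5 (-0.58). pDCs also express Tlr9 and Tlr7, and the naive libraries of both Spib-/- genotypes were those with pDC marker sums of 2030 to 3010 CPM.

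Tlr7, which shares endosomal transport with Tlr9, was not called in any comparison of genotypes. It ranged from 111 to 159 CPM in naive cells, from 149 to 191 CPM after CD40L + IL-4 and from 102 to 146 CPM after LPS + IL-4. In PU.1 SpiB DKO its log2 change from control was 0.28 ± 0.13 in naive cells, 0.02 ± 0.16 after CD40L + IL-4 and 0.27 ± 0.11 after LPS + IL-4, where the adjusted p was 0.0766 and the fold under 1.5. In CD40L + IL-4 the libraries of both groups overlapped and the sign turned without PU.1 SpiB DKO replicate 1 or control replicate 2.

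Tlr3 had low counts and was called lower in PU.1 SpiB DKO in naive cells and after LPS + IL-4. Its naive level was 7.77 and 11.8 CPM in control, 11.4 and 7.64 CPM in libraries of PU.1 cKO, 4.58 and 8.89 CPM in those of SpiB KO and 3.50 and 5.43 CPM in those of PU.1 SpiB DKO (log2 change -1.12 ± 0.38, adjusted p = 0.0644, edgeR). PU.1 SpiB DKO lay below control and PU.1 cKO but overlapped SpiB KO. After LPS + IL-4 it was at 2.12 and 1.03 CPM in control, 1.32 and 2.05 CPM in libraries of PU.1 cKO, 1.41 and 1.24 CPM in those of SpiB KO and 0.797 and 0.541 CPM in those of PU.1 SpiB DKO (-1.15 ± 0.44, adjusted p = 0.0707). Tlr3 was also lower in PU.1 SpiB DKO than in PU.1 cKO in naive cells (-1.08 ± 0.37) and after LPS + IL-4 (-1.29 ± 0.42). After CD40L + IL-4 the 8 libraries held 2 to 16 reads of Tlr3 each, at 0.965 and 0.733 CPM in control, 0.200 and 0.263 CPM in libraries of PU.1 cKO, 0.788 and 0.260 CPM in those of SpiB KO and 0.432 and 0.476 CPM in those of PU.1 SpiB DKO, and no comparison of genotypes was called in the fit of the stage. PU.1 cKO was called lower than control there by voom (-1.58, adjusted p = 0.141), with all 24 libraries in 1 fit (-1.73, 0.0871) and with only the groups compared (-1.76, 0.133). Both calls of Tlr3 after LPS + IL-4 were lost when a mean log2 RPKM above 0 was required. The naive call against control was lost without PU.1 SpiB DKO replicate 1 (-0.85) or control replicate 2 (-0.79), that against PU.1 cKO without replicate 1 of either genotype (-0.81 and -0.77), and that after LPS + IL-4 without control replicate 1 (-0.61) or PU.1 SpiB DKO replicate 2 (-0.93).

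Tlr4 was lower only where SpiB was lost together with PU.1 in the cultures, as far as the calls went, and PU.1 cKO differed from control by 0.11 ± 0.20 and 0.00 ± 0.12 there. After CD40L + IL-4 it was at 15.3 and 19.0 CPM in control, 18.8 and 18.1 CPM in libraries of PU.1 cKO, 18.0 and 15.6 CPM in those of SpiB KO and 10.8 and 8.0 CPM in those of PU.1 SpiB DKO. The log2 change in PU.1 SpiB DKO was -0.87 ± 0.22 from control (adjusted p = 0.0245, edgeR), -0.97 ± 0.21 from PU.1 cKO and -0.84 ± 0.22 from SpiB KO. All 3 calls for Tlr4 were lost without PU.1 SpiB DKO replicate 2 (-0.65, -0.78 and -0.64). That against PU.1 cKO was also lost without either PU.1 cKO library (-0.96 and -1.01), and that against SpiB KO without SpiB KO replicate 1 (-0.73). The interaction was -0.95 ± 0.30 and not called (adjusted p = 0.311). It was called with no filter on low counts (adjusted p = 0.106) and with all 24 libraries in 1 fit (0.0291). After LPS + IL-4 Tlr4 was at 19.1 and 23.7 CPM in control, 22.3 and 20.7 CPM in libraries of PU.1 cKO, 18.5 and 18.7 CPM in those of SpiB KO and 14 and 14.4 CPM in those of PU.1 SpiB DKO. The latter lay below all other groups, by -0.60 ± 0.12 from control (adjusted p = 0.00545), a fold of 1.52 that fell under 1.5 without PU.1 SpiB DKO replicate 1 (-0.58) or control replicate 2 (-0.43).

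In naive cells Tlr4 split by SpiB instead. It was at 43.3 and 46.7 CPM in control and at 51.7 and 52.3 CPM in PU.1 cKO, but at 33.4 and 30.4 CPM in SpiB KO and at 31.0 and 30.3 CPM in libraries of PU.1 SpiB DKO. The log2 changes from control in SpiB KO (-0.50 ± 0.12, adjusted p = 0.0482, edgeR) and PU.1 SpiB DKO (-0.55 ± 0.12, 0.0125) had a fold under 1.5, and PU.1 SpiB DKO was called lower than PU.1 cKO (-0.76 ± 0.12, 0.00304). Without control replicate 1 the change in PU.1 SpiB DKO (-0.62) passed the fold. These 2 genotypes were those with the raised sums of pDC, T cell and myeloid markers, and their B cell marker sums were 8030 to 9560 CPM against 10500 to 10800 CPM in the other genotypes.

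Ly96, which encodes the MD-2 partner of TLR4, did not follow Tlr4. In naive cells it was at 5.46 and 4.12 CPM in control, 5.48 and 6.19 CPM in libraries of PU.1 cKO, 7.02 and 4.64 CPM in those of SpiB KO and 8.98 and 7.43 CPM in those of PU.1 SpiB DKO. It was called higher in PU.1 SpiB DKO (0.77 ± 0.27, adjusted p = 0.0740, edgeR), the 1 gene of the 10 that was higher in any comparison with control. That call was lost without PU.1 SpiB DKO replicate 1 (0.63) or control replicate 2 (0.58). After CD40L + IL-4 it was at 5.35 and 10.2 CPM in control, 4.51 and 3.68 CPM in libraries of PU.1 cKO, 5.91 and 5.54 CPM in those of SpiB KO and 5.61 and 6.57 CPM in those of PU.1 SpiB DKO. The call in PU.1 cKO (-0.94 ± 0.32, adjusted p = 0.108) rested on control replicate 2, without which the change was -0.41, and it was also lost without either PU.1 cKO library (-1.04 and -0.76). After LPS + IL-4 Ly96 ranged from 5.91 to 8.30 CPM over the 8 libraries and was not called.

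Ly86, which encodes the MD-1 partner of CD180, had the next largest fall after Tlr9 in both cultures of PU.1 SpiB DKO. After CD40L + IL-4 it was at 191 and 259 CPM in control, 115 and 121 CPM in libraries of PU.1 cKO, 249 and 201 CPM in those of SpiB KO and 71.2 and 69.4 CPM in those of PU.1 SpiB DKO. The log2 change was -0.93 ± 0.18 in PU.1 cKO (adjusted p = 0.0093, edgeR) and -1.68 ± 0.19 in PU.1 SpiB DKO (0.000203), which was also below SpiB KO (-1.68 ± 0.19). The difference of -0.74 ± 0.18 from PU.1 cKO was called with the 8 libraries of the stage but in none of the fits that left out 1 of the 4 libraries compared. After LPS + IL-4 Ly86 was at 198 and 194 CPM in control, 102 and 95.7 CPM in libraries of PU.1 cKO, 173 and 194 CPM in those of SpiB KO and 80.4 and 81.6 CPM in those of PU.1 SpiB DKO. The changes from control were -0.98 ± 0.08 and -1.27 ± 0.08, with adjusted p of 9.99e-05 and 1.03e-05, and SpiB KO overlapped control. In naive cells Ly86 was at 439 and 388 CPM in control, 286 and 262 CPM in libraries of PU.1 cKO, 454 and 401 CPM in those of SpiB KO and 335 and 282 CPM in those of PU.1 SpiB DKO. It was called lower in PU.1 cKO (-0.59 ± 0.13, adjusted p = 0.0256), just past a fold of 1.5 and not past it without control replicate 1 (-0.50), and the call was also lost without PU.1 cKO replicate 2 (-0.55). Ly86 was not called in this comparison by voom. The naive change in PU.1 SpiB DKO was -0.42 ± 0.13, with an adjusted p of 0.0455 and a fold under 1.5.

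Cd180 changed less than its partner Ly86. After CD40L + IL-4 it was at 214 and 229 CPM in control, 151 and 131 CPM in libraries of PU.1 cKO, 256 and 170 CPM in those of SpiB KO and 158 and 152 CPM in those of PU.1 SpiB DKO. It was called lower in PU.1 cKO (-0.65 ± 0.19, adjusted p = 0.0625, edgeR), but not without control replicate 2 (-0.60) or PU.1 cKO replicate 2 (-0.54). In PU.1 SpiB DKO the change of -0.52 ± 0.19 had an adjusted p of 0.104 and a fold under 1.5. In naive cells it was at 448 and 451 CPM in control, 445 and 441 CPM in libraries of PU.1 cKO, 398 and 416 CPM in those of SpiB KO and 354 and 398 CPM in those of PU.1 SpiB DKO (-0.26 ± 0.10, adjusted p = 0.112, fold under 1.5). After LPS + IL-4 it was at 318 and 316 CPM in control, 288 and 260 CPM in libraries of PU.1 cKO, 302 and 348 CPM in those of SpiB KO and 238 and 287 CPM in those of PU.1 SpiB DKO (-0.27 ± 0.11, adjusted p = 0.0840, fold under 1.5).

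Tlr2, the shared subunit of the lipopeptide receptors, was called lower with PU.1 loss in the cultures, where SpiB KO also lay below control without a call. After CD40L + IL-4 it was at 6.58 and 9.53 CPM in control, 2.71 and 3.54 CPM in libraries of PU.1 cKO, 3.55 and 5.02 CPM in those of SpiB KO and 3.88 and 4.19 CPM in those of PU.1 SpiB DKO, so that all 6 mutant libraries lay below both controls. It was called in PU.1 cKO (-1.33 ± 0.31, adjusted p = 0.0235, edgeR) and PU.1 SpiB DKO (-0.99 ± 0.32, 0.0674) but not in SpiB KO (-0.90 ± 0.32, 0.967), and these values rest on 27 to 215 reads a library. Without control replicate 2 the changes in PU.1 cKO (-1.04) and in PU.1 SpiB DKO (-0.70) were not called, and the latter also failed without either PU.1 SpiB DKO library (-0.94 and -1.04). After LPS + IL-4 Tlr2 was at 5.14 and 5.00 CPM in control, 2.97 and 2.89 CPM in libraries of PU.1 cKO, 3.38 and 3.95 CPM in those of SpiB KO and 2.24 and 2.67 CPM in those of PU.1 SpiB DKO. PU.1 cKO (-0.79 ± 0.19, adjusted p = 0.0234) and PU.1 SpiB DKO (-1.05 ± 0.19, 0.00307) were called, and SpiB KO (-0.48 ± 0.19) was not. In naive cells it was at 26.8 and 24.5 CPM in control, 25.7 and 23.6 CPM in libraries of PU.1 cKO, 27.1 and 24.2 CPM in those of SpiB KO and 22.4 and 19.1 CPM in those of PU.1 SpiB DKO, with no call.

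Of the partners of TLR2, Tlr1 was lower in PU.1 SpiB DKO and Tlr6 was not called in any comparison of genotypes. These neighbours on chromosome 5 (Tlr1 at chr5:64924680-64933600 and Tlr6 at chr5:64953092-64970942) are similar in sequence, so reads of their shared stretches may be missing or uncertain, and Tlr6 overlaps Fam114a1 and Mir574 in the annotation. After LPS + IL-4 Tlr1 was at 46.2 and 46.5 CPM in control, 30.6 and 31.4 CPM in libraries of PU.1 cKO, 40.6 and 43.8 CPM in those of SpiB KO and 25.9 and 24.7 CPM in those of PU.1 SpiB DKO. No pair of genotypes overlapped. The change was -0.87 ± 0.09 in PU.1 SpiB DKO (adjusted p = 0.000132, edgeR) and -0.58 ± 0.09 in PU.1 cKO (0.00288), the latter just under a fold of 1.5 and called by DESeq2 (-0.59). After CD40L + IL-4 it was at 24.9 and 34.6 CPM in control, 29.5 and 25.8 CPM in libraries of PU.1 cKO, 37.4 and 25.7 CPM in those of SpiB KO and 20.5 and 16.3 CPM in those of PU.1 SpiB DKO (-0.69 ± 0.23, adjusted p = 0.0785). That call was lost without control replicate 2 (-0.44) or PU.1 SpiB DKO replicate 2 (-0.53). In naive cells Tlr1 was at 154 and 161 CPM in control, 184 and 174 CPM in libraries of PU.1 cKO, 160 and 144 CPM in those of SpiB KO and 147 and 133 CPM in those of PU.1 SpiB DKO, with no call against control. Tlr6 ranged from 11.3 to 15.6 CPM in naive cells, from 4.10 to 9.72 CPM after CD40L + IL-4 and from 4.11 to 6.13 CPM after LPS + IL-4.

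Whether the second loss added to the first was read from PU.1 SpiB DKO against each single mutant. Against PU.1 cKO, 2 of the 10 genes were called lower in naive cells (Tlr3 and Tlr4, 3.00% of all genes), 3 after CD40L + IL-4 (Tlr4, Tlr9 and Ly86, 1.83%) and 2 after LPS + IL-4 (Tlr3 and Tlr4, 3.49%), so Tlr4 was lower at all 3 stages. In naive cells Tlr4 in PU.1 SpiB DKO (31.0 and 30.3 CPM) overlapped SpiB KO (33.4 and 30.4 CPM). With 1 of the 4 libraries compared left out, the naive call of Tlr3 was lost in 2 of 4 fits and that of Tlr4 in 0. After CD40L + IL-4 the call of Tlr4 was lost in 3 of 4 such fits and that of Ly86 in 4 of 4. Each of the 2 calls after LPS + IL-4 was lost in some of the fits that left out 1 library, which called 1 gene each. Against SpiB KO, 0 were called in naive cells by edgeR or DESeq2 (1.34%; 2 had an unadjusted p under 0.05), 4 after CD40L + IL-4 (Tlr1, Tlr4, Tlr9 and Ly86, 7.11%) and 3 after LPS + IL-4 (Tlr1, Tlr9 and Ly86, 4.12%). Tlr1 after CD40L + IL-4 was not called without SpiB KO replicate 1 (-0.49) or PU.1 SpiB DKO replicate 2 (-0.63). With the replicate number as a block, Tlr3 was also called after LPS + IL-4 (-0.97 ± 0.43, adjusted p = 0.113, edgeR). No gene was called for the interaction in naive cells (0.480% of all genes were called lower; 0 had an unadjusted p under 0.05) or after LPS + IL-4 (0.796%; 1 had an unadjusted p under 0.05) by edgeR or DESeq2, although Tlr9 was called after LPS + IL-4 with no filter on low counts (-0.45, adjusted p = 0.135).

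The change in PU.1 SpiB DKO from control differed between naive cells and the cultures. In a fit of all 24 libraries, where a call rests on an adjusted p under 0.15 alone, the log2 change of PU.1 SpiB DKO from control was more negative after CD40L + IL-4 than in naive cells for Tlr9 (-2.09 ± 0.25, adjusted p = 1.57e-05, edgeR), Ly86 (-1.23 ± 0.20) and Ly96 (-1.09 ± 0.39), 3 of 10 genes against 9.62% of all genes. After LPS + IL-4 it was more negative for 5 genes (16% of all genes), namely Tlr9 (-1.02 ± 0.24), Ly86 (-0.91 ± 0.20), Ly96 (-0.91 ± 0.37), Tlr2 (-0.81 ± 0.28) and Tlr1 (-0.77 ± 0.22). The difference for Tlr2 was lost without PU.1 SpiB DKO replicate 1 of either stage (-0.70 each) or naive control replicate 2 (-0.71). Tlr9 alone differed between the cultures, with a smaller fall after LPS + IL-4 (1.07 ± 0.25, adjusted p = 0.00887; 13.6% of all genes were called higher). In PU.1 SpiB DKO Spi1 lay below control after CD40L + IL-4 (32.5 and 25.6 against 84.8 and 108 CPM). After LPS + IL-4 it overlapped control (63.9 and 58.8 against 72.0 and 60.7 CPM), and its part in the difference was not tested. The naive arm of these comparisons holds the PU.1 SpiB DKO libraries with raised markers of other cells and with Spi1 at 103 and 110 CPM, above naive PU.1 cKO, so a stage difference in the effect and incomplete loss of PU.1 in naive cells cannot be told apart. These differences also share control libraries.

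Beyond the receptors, the genes that carry them to endosomes and link them to the nucleus changed in part. Of 34 further genes of the pathway, 29 were tested in naive cells and after CD40L + IL-4 and 28 after LPS + IL-4. In PU.1 SpiB DKO 5 were called lower and 2 higher in naive cells, 8 lower and 3 higher after CD40L + IL-4 and 7 lower and 3 higher after LPS + IL-4, with medians of -0.19, -0.17 and -0.05 on the log2 scale. Of all genes tested, 8.64% were called lower and 12.6% higher in naive cells, 9.20% and 9.13% after CD40L + IL-4, and 6.52% and 13.7% after LPS + IL-4. Of 4 genes tested for ligand handling and receptor transport, 3 were called lower and 1 (Hsp90b1) higher after CD40L + IL-4, and 3 lower and 0 higher after LPS + IL-4. Unc93b1, the chaperone that moves TLR3, TLR7 and TLR9 to endosomes, was at 574 and 648 CPM in control and 242 and 206 CPM in PU.1 SpiB DKO after CD40L + IL-4 (-1.45 ± 0.18, adjusted p = 0.000455, edgeR). After LPS + IL-4 it fell by -0.85 ± 0.15. Cnpy3, a chaperone for the folding of several Toll-like receptors, was lower by -1.52 ± 0.17 and -0.95 ± 0.11, and Cd36, a scavenger receptor that helps TLR2, by -1.34 ± 0.35 and -2.21 ± 0.24.

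Among signalling genes, Irf5, a transcription factor activated below MyD88, was called lower in PU.1 SpiB DKO at all 3 stages. It was at 291 and 315 CPM in naive control cells against 154 and 146 CPM (-1.02 ± 0.10), at 223 and 270 CPM against 52.2 and 64.0 CPM after CD40L + IL-4 (-2.08 ± 0.18) and at 248 and 237 CPM against 71.7 and 83.4 CPM after LPS + IL-4 (-1.65 ± 0.11). Pik3ap1, the adaptor BCAP that links receptors to PI3K, was also lower at all 3 stages (-0.73 ± 0.14, -1.91 ± 0.25 and -0.78 ± 0.09). The kinase Irak2 (-0.92 ± 0.14 and -0.86 ± 0.34) and the ubiquitin ligase Traf3 (-0.76 ± 0.21 and -0.73 ± 0.16) were lower in naive cells and after CD40L + IL-4. Tirap, which bridges TLR2 and TLR4 to MyD88, was higher in both cultures (0.87 ± 0.25 and 1.0 ± 0.11). The remaining adaptors and kinases were mostly uncalled, and the receptors Tlr8 and Tlr11 and the LPS-binding Cd14 and Lbp did not reach the expression filter at any stage. Tlr12, named after its values were seen, was at 18.6 and 10.9 CPM in naive control cells, 46.3 and 40.5 CPM in SpiB KO and 54.5 and 51.6 CPM in libraries of PU.1 SpiB DKO, both being genotypes with the raised pDC markers, and it was not called in PU.1 SpiB DKO in either culture.

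**Figure D5:**
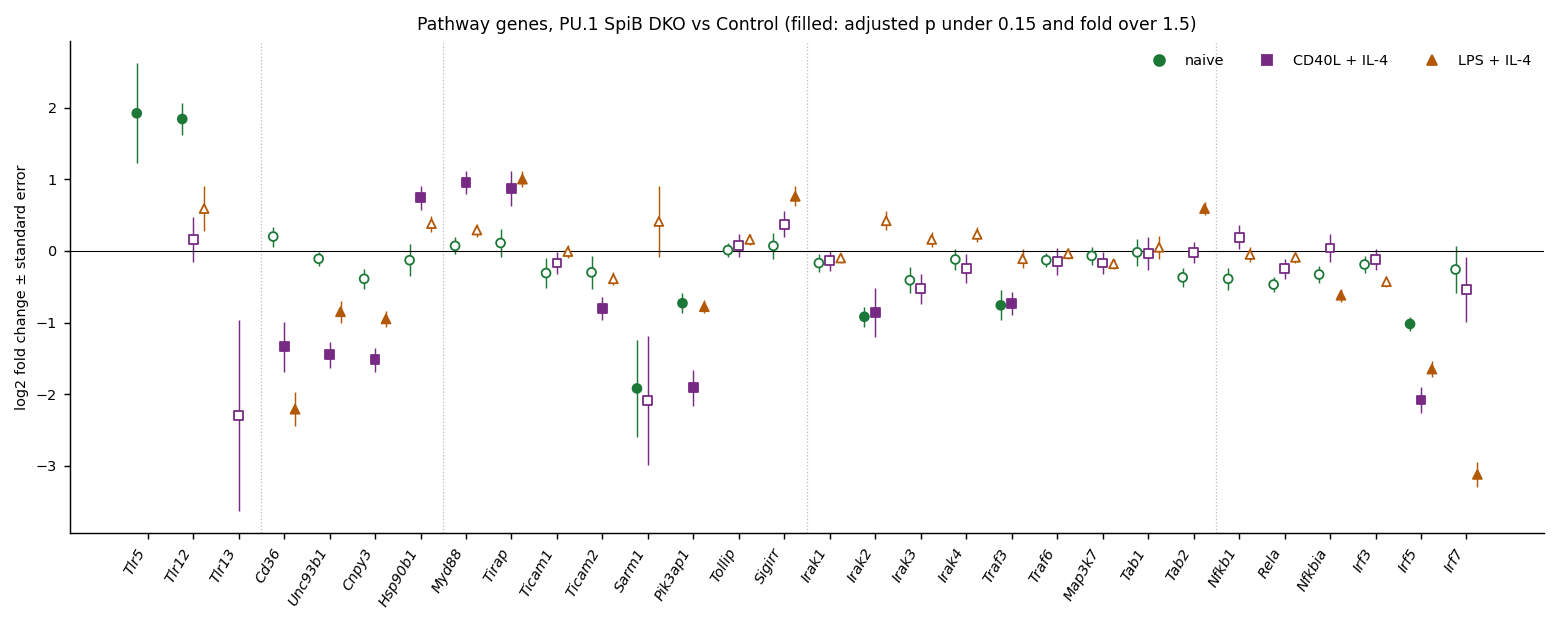
Log2 fold change of PU.1 SpiB DKO from control ± standard error (vertical axis) for the pathway genes tested (horizontal axis), at each stage (colour and marker). Filled points were called. Dotted lines separate other receptors, transport, adaptors, kinases and ligases, and transcription factors, and Irf5 and Pik3ap1 are filled below 0 at all 3 stages.

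The genes whose pattern was closest to that of Tlr9 came partly from the same pathway. Over the 24 libraries, with log2 CPM centred on the stage mean, the highest Pearson correlations among 13684 genes were with Lgmn (0.984), the protease legumain, Ncf1 (0.977), a subunit of the NADPH oxidase, and Unc93b1 (0.973). For Tlr4 they were lower, with Btnl2 (0.857), Rbm43 (0.852) and Nxpe3 (0.852). Among the 10 genes the closest pair was Tlr9 and Ly86 (0.96), followed by Tlr1 and Ly86 (0.81). These points share genotype groups and libraries, and the correlations are descriptions.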

How the data were processed

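Per the study's methods, the authors aligned reads to GRCm38 with Subread, assigned uniquely mapped reads to RefSeq genes with featureCounts and deposited raw counts for 27179 genes, of which 517 have no symbol. They also deposited log2 RPKM per library, with quantile normalization by limma. Reads were not realigned here, and 0 columns of samples were left unused. Counts were filtered at 0.5 CPM in at least 2 libraries, scaled by TMM and tested with edgeR 4.0.16 (quasi-likelihood) in R 4.3.3, with the 8 libraries of a stage in 1 fit, or all 24 for comparisons of stages. All 10 genes passed the filter at every stage. A call needed a Benjamini-Hochberg adjusted p under 0.15 over all genes and a fold over 1.5, or the adjusted p alone for interactions and differences of effects. Standard errors are the log2 change divided by the root of the F statistic. The log2 RPKM served for levels per length and as an alternative threshold, since those values are normalized and unfit for a count test. Depth, from 9598674 to 73658850 counts a library, limits low genes such as Tlr3 most.

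Alternatives were DESeq2 1.42.0, voom with quantile normalization (limma 3.58.1), other scaling, filters, thresholds and sets of libraries, a replicate block, and leaving out each library. Deviations of same-numbered libraries correlated at 0.386 to 0.514 between genotypes in LPS + IL-4 cultures (6 of 6 above 0.1). These numbers may thus pair the libraries, which no label states. The main fits held no replicate term, and the block was an alternative only. Correlations were lower after CD40L + IL-4 (-0.0702 to 0.266, 4 of 6 above 0.1) and in naive cells (0.0918 to 0.25, 5 of 6), and pairing was not shown there. The scripts were tested on simulated data. All 10 genes were named, with each library's CPM for genes called against control. Of 34 pathway genes (other receptors, transport, adaptors, kinases and ligases, transcription factors), those called in PU.1 SpiB DKO at a pair of stages or more were named. Marker lists covered B cells, pDCs, macrophages and monocytes, conventional dendritic cells, neutrophils, T cells, plasma cells, and marginal zone and B-1 cells. Older symbols were matched by Entrez ID. The genes, lists and tests were chosen with earlier results of these data known. Promoter sequences and positions came from RefSeq tables of GRCm38.p6. No protein sequences were used here.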

Additional observations from a re-analysis of the deposited data

Results flagged for a closer look

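The change in PU.1 SpiB DKO from control differed between stages for 5 of the 10 genes, by the interaction of genotype and stage in edgeR's quasi-likelihood fit of all 24 libraries. Between CD40L + IL-4 and naive cells the log2 changes differed by -2.09 ± 0.25 for Tlr9 (adjusted p = 1.57e-05), -1.23 ± 0.20 for Ly86 (0.000442) and -1.09 ± 0.39 for Ly96 (0.0944). Between LPS + IL-4 and naive cells they differed by -1.02 ± 0.24 for Tlr9 (0.0073), -0.91 ± 0.20 for Ly86 (0.00447), -0.91 ± 0.37 for Ly96 (0.0955), -0.81 ± 0.28 for Tlr2 (0.0519) and -0.77 ± 0.22 for Tlr1 (0.0203). Between LPS + IL-4 and CD40L + IL-4 the difference was 1.07 ± 0.25 for Tlr9 (0.00887). The part of the Spi1 counts of PU.1 SpiB DKO, which overlapped control only after LPS + IL-4, was not tested. In the naive arm Spi1 was at 103 and 110 CPM in PU.1 SpiB DKO against 59.5 and 53.2 CPM in libraries of PU.1 cKO, so a stage difference and incomplete loss of PU.1 in naive cells cannot be told apart. The values for Ly96 were lost in 4 of the 8 fits without 1 library against each culture, with ranges of -1.52 to -0.55 and -1.16 to -0.70.

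In 3 further cases both libraries of a single mutant lay above both controls at 1 stage and below them at another, and the difference was not tested. Tlr1 in PU.1 cKO was 0.19 on the log2 scale in naive cells and -0.58 after LPS + IL-4. Tlr7 in SpiB KO was 0.31 in naive cells, 0.09 after CD40L + IL-4 and -0.11 after LPS + IL-4. Ly96 in PU.1 cKO was 0.28 in naive cells and -0.94 after CD40L + IL-4. Of these values only that of Ly96 after CD40L + IL-4 was called.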

How the results depend on the processing

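Of 616 values of single genes under alternatives other than leaving out a library, 594 kept their direction and call, 22 lost the call and 0 turned direction. DESeq2, RLE size factors, no filter on low counts, all 24 libraries in 1 fit and the replicate block lost none. Of 340 values with 1 library left out, 277 kept the call, 60 lost it, 1 gained it and 2 turned direction, both for Tlr7 in PU.1 SpiB DKO after CD40L + IL-4 (-0.16 and -0.03, in a range up to 0.18). At an adjusted p under 0.05, 15 of 75 values lost the call.

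At an adjusted p under 0.05 the genes called numbered 0 for naive PU.1 SpiB DKO against control, 1 against PU.1 cKO in naive and LPS + IL-4 cells, 3 for each genotype with PU.1 loss against control after CD40L + IL-4, 0 for the CD40L + IL-4 interaction and 3 for the difference of effects between LPS + IL-4 and naive cells. With voom and quantile normalization they numbered 1 for each genotype with PU.1 loss against control in naive cells, and after LPS + IL-4 1 for SpiB KO against control and 5 for PU.1 SpiB DKO against SpiB KO. With no filter on low counts they numbered 3 for the CD40L + IL-4 interaction, and after LPS + IL-4 1 for the interaction and 5 for PU.1 SpiB DKO against SpiB KO. All 24 libraries in 1 fit called 4 for the CD40L + IL-4 interaction, and a mean log2 RPKM above 0 left 1 for the double against the single PU.1 loss after LPS + IL-4. The cause was not tested.

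With the replicate block, the difference of effects between CD40L + IL-4 and naive cells rose from 3 to 5 genes (Tlr1 and Tlr2 added), PU.1 SpiB DKO against SpiB KO after LPS + IL-4 from 3 to 4, and no other call changed.

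With 1 library left out, counts ranged from 0 to 2 (PU.1 cKO) and 0 to 3 (PU.1 SpiB DKO) against control in naive cells, and from 1 to 2 for the double against the single PU.1 loss there. After CD40L + IL-4 they ranged from 2 to 5 for either genotype with PU.1 loss against control and for PU.1 SpiB DKO against SpiB KO, from 1 to 2 for the double against the single PU.1 loss and from 0 to 1 for the interaction. After LPS + IL-4 they were 1 for the double against the single PU.1 loss and 0 to 1 for the interaction. For differences of effects they ranged from 2 to 5 (CD40L + IL-4 against naive), 3 to 5 (LPS + IL-4 against naive) and 1 to 2 (LPS + IL-4 against CD40L + IL-4).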
